A study of Mus musculus with 16 samples.

Results

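Cell adhesion molecules of the immunoglobulin superfamily in the muscle layer of the mouse colon were examined through 10 genes chosen by symbol, out of 56748 genes in the table. They were the 4 members of the L1 family (L1cam, Chl1, Nrcam and Nfasc), the neural cell adhesion molecules Ncam1 and Ncam2, the contactin Cntn1, Alcam, and the leukocyte adhesion ligands Vcam1 and Icam1. All 10 were found and each was read in all 16 libraries. The first 8, all but Vcam1 and Icam1, are called the neural members here as a label, though Alcam also binds the T cell receptor CD6. Of the genes in the table, 23907 had no count in any library.

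Immunoglobulin adhesion molecules carry immunoglobulin-like domains outside the cell and bind partners on neighboring cells or in the matrix. The L1 family and the neural cell adhesion molecules bind like to like and guide axon growth, bundling and the grouping of neurons, and L1CAM is known for a part in the migration of enteric neural crest cells. Vcam1 and Icam1 are bound by integrins on white blood cells and are known for expression on activated endothelium, and Vcam1 also occurs on muscle and stromal cells.

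RNA came from the longitudinal muscle and myenteric plexus (LMMP), the layer that holds the nerve network between the muscle coats of the gut wall, in a mouse model of Hirschsprung disease (HSCR). The 4 groups of 4 libraries each crossed genotype, Ednrb -/- (HSCR) or Ednrb +/+ wildtype (WT) littermates, with segment, proximal or distal colon. HSCR mice were homozygous for a germline null allele of Ednrb, the endothelin receptor that enteric neural crest cells need, on a hybrid C57BL6/J-129Sv background, and mice of both sexes were 2 to 4 weeks old. The proximal HSCR segment was the distended colon that holds ganglia, and the distal HSCR segment was the part that the study calls aganglionic, where ganglia are few or absent and muscle, vessels and extrinsic nerves remain. The tissue entry of the 8 libraries titled distal names the proximal colon, and the titles were followed.

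Libraries held 21384372 to 45831881 counted reads, of which mitochondrial genes took 4.32% to 49.8%. Levels are given as CPM (reads scaled to a common library total), with library sizes scaled by TMM over the 16 libraries. Some libraries went against their labels. Hoxd13, a gene of the hindmost gut, stood at 125 CPM in HSCR proximal 1 and at 0.662 to 2.35 CPM in the other HSCR proximal libraries, whereas HSCR distal 1 held 0.615 CPM, HSCR distal 4 held 14.0 CPM and the WT distal libraries 117 to 215 CPM. Ednrb itself was at 94.7 CPM in HSCR distal 1, the highest of all 16 libraries, and at 5.43 to 9.48 CPM in the other HSCR distal libraries. It was at 7.84 to 37.4 CPM in the HSCR proximal libraries and at 33.8 to 67.1 CPM in the WT proximal ones, and counts over the whole gene do not show whether the disrupted part was read. A list of 15 enteric neuron markers had a mean log2 CPM of 5.65 in HSCR distal 1 against 0.36 to 2.03 in the other HSCR distal libraries, and of 2.12 in WT distal 1 against 4.03 to 6.77 in the other WT distal libraries. Smooth muscle markers (8 genes) had a mean log2 CPM of 10.9 to 11.7 in the 4 groups, with the lowest library at 7.84 in HSCR proximal colon. Epithelial markers, which a clean LMMP lacks, were also present, with a mean over 8 genes of 6.68 in HSCR proximal and 2.28 in WT proximal colon. The library names of replicates 1 and 2 share a scheme. In replicates 3 and 4 the WT proximal names share a scheme, the distal names another, and the HSCR proximal names are split between them. Replicates 1 and 2 and replicates 3 and 4 are treated as 2 series, and in the latter naming goes partly with group. Values are given within each series where a result rests on both. The labels name 1 batch for all libraries.

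Promoter sequence is shown for L1cam, the member with the highest level per length in WT proximal colon, and for Icam1, the member with a higher fitted level in HSCR proximal colon where the others were lower. RefSeq promoter windows (table build GRCm38.p6) matched 8 of the 10 members, not Vcam1 and Ncam1. The 250 bases before the start were read and placed in GRCm39 by exact match, at chr9:20926986-20927235 on the plus strand for Icam1 and at chrX:72924397-72924646 on the minus strand for the first of the L1cam windows, which lies within the span of the gene in the files. Capitals mark 2 motifs searched on both strands, GGAANTTCC, a palindromic form of the NF-κB site, and GGGCGG, the core of the GC box, here read as CCGCCC.
Icam1: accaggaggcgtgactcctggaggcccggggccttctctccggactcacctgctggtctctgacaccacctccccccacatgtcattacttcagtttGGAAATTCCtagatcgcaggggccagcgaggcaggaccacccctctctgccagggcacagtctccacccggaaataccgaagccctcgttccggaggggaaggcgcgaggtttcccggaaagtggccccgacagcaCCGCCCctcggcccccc
L1cam: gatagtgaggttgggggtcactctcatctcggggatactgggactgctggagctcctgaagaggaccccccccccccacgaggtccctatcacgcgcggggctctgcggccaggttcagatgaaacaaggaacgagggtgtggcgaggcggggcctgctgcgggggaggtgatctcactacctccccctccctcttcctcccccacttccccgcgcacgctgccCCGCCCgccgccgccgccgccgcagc
The first motif began 153 bases before the start of Icam1 and lay in no other member window, and 0.813% of 32851 windows of this length held it. The GC box began 17 bases before the start of Icam1 and 26 before that of L1cam. It lay in windows of 6 members (Alcam, Icam1, L1cam, Ncam2, Nfasc and Nrcam) and in 32.7% of all windows. The windows held 15 CG dinucleotides in Icam1 and 20 in L1cam.

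In WT proximal colon the members spanned a wide range of levels. Per kb of gene length, L1cam had the highest mean, 20.5 ± 12.5 CPM per kb (SD, n = 4), followed by Ncam1 at 14.6 ± 5.99, Alcam at 13.2 ± 10.5 and Cntn1 at 9.63 ± 7.88. Chl1 was at 5.67 ± 3.83 CPM per kb, Ncam2 at 3.26 ± 3.54 and Vcam1 at 3.07 ± 0.921. Nfasc at 1.54 ± 1.48, Nrcam at 0.709 ± 0.606 and Icam1 at 0.646 ± 0.506 CPM per kb closed the order. The ranges of all neighbors in this order overlapped. L1cam was above Ncam1 in 3 of 4 libraries, Alcam above Cntn1 in 4 of 4 and Ncam2 above Vcam1 in 2 of 4.

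L1cam led the order in WT distal colon as well (10.6 ± 10.6 CPM per kb). Alcam led it in HSCR proximal colon (8.23 ± 6.67 CPM per kb) and Ncam1 in HSCR distal colon (3.74 ± 3.95 CPM per kb). Icam1, last in WT proximal colon, was at 2.36 ± 1.30 CPM per kb in WT distal colon. In the HSCR groups Icam1 was at 2.10 ± 0.922 (proximal) and 1.85 ± 0.825 (distal). Its mean there ranked above that of Chl1 (2.01 ± 2.00 and 1.01 ± 1.47). Icam1 was above Chl1 in 2 of 4 HSCR proximal and 3 of 4 HSCR distal libraries. In these 3 groups, too, neighbors in the order had overlapping ranges, apart from Vcam1 over Nrcam in HSCR distal colon. The 8 neural members summed to 69.1 ± 43.5 CPM per kb in WT proximal, 29.5 ± 18.7 in HSCR proximal, 37.4 ± 36.0 in WT distal and 14.0 ± 12.9 in HSCR distal colon. Their share of the summed level of all 10 members ran from 48.1% in WT distal 1 to 95.9% in WT proximal 3.

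**Figure D1:**
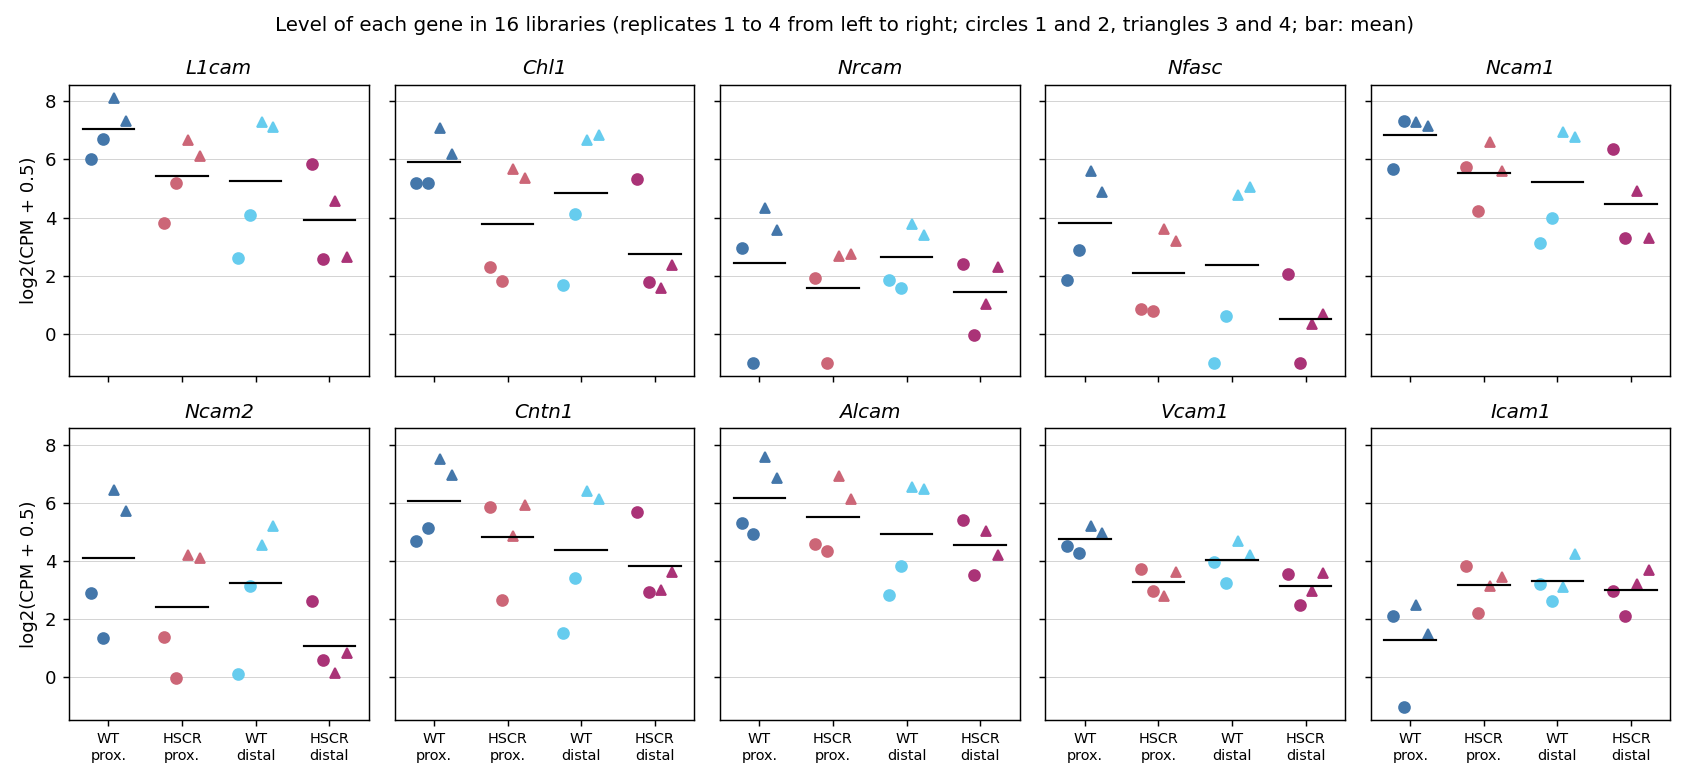
Level of each of the 10 genes, as log2(CPM + 0.5), in 16 libraries of 4 groups; points are libraries in the order of their replicate numbers, circles are replicates 1 and 2, triangles replicates 3 and 4, and bars are group means. Vcam1 is lower in all 4 HSCR proximal than in all 4 WT proximal libraries (6.40 to 12.7 against 18.9 to 36.8 CPM), and L1cam runs from 5.67 to 154 CPM within WT distal colon.

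The main comparison asked which members differ between HSCR and WT in the proximal colon, the ganglionic segment of the HSCR mice. Of the 10 members, 9 had a lower fitted level in HSCR and Icam1 a higher one, with a median log2 fold change of -1.39 against 0.04 over all genes tested. None was past an adjusted p of 0.05 in edgeR's quasi-likelihood test (0 of 10), as was no gene of the whole table (0%). At an unadjusted p under 0.05, 3 members (L1cam, Ncam1 and Vcam1) were lower and 0 higher, where 4.13% of genes were lower. A log2 fold change below -1 was fitted for 8 members and for 10.1% of all genes, and one below 0 for 9 members and for 46.8%. In bulk tissue, fewer cells of a type and less RNA per cell cannot be told apart, and this holds for each level given here. The other tools run on the same libraries called 0 members (edgeR's likelihood ratio test, 0.414% of all genes), 1 (DESeq2, 1.14%) and 8 (edgeR with 4 RUVr factors, the correction named in the study's methods, 20.8%).

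Vcam1 was the only member whose groups did not overlap in this comparison. The 4 WT proximal libraries held 22.2, 18.9, 36.8 and 31.0 CPM, and the 4 HSCR proximal libraries 12.7, 7.36, 6.40 and 12.0 CPM. Each HSCR library was thus below each WT library, a separation downward that 2.83% of all genes tested also had. The fitted log2 fold change was -1.51 ± 0.35 (SE), a level 2.85-fold lower in HSCR, with an unadjusted p of 0.00209 and an adjusted p of 0.601 in edgeR's quasi-likelihood test. DESeq2 gave an adjusted p of 0.0116 for the same libraries and RUVr one of 7.02e-05, and over the alternatives the adjusted p lay between 7.02e-05 and 0.845. Without HSCR proximal 1 the log2 fold change was -1.65, and leaving out 1 library at a time gave -1.65 to -1.33. Within replicates 1 and 2 the mean log2 CPM was 1.04 lower in HSCR, and within replicates 3 and 4 it was 1.89 lower.

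Markers of the cell types in the layer are given beside Vcam1. A list of 10 endothelial markers differed by -0.24 in mean log2 CPM between HSCR and WT proximal colon, with summed levels of 91.9 to 576 CPM in HSCR and 180 to 334 CPM in WT. Smooth muscle markers (8 genes) differed by -0.70 and fibroblast markers (8 genes) by -0.08. HSCR proximal 2 was the lowest library in both lists, at 7.84 and 5.96 in mean log2 CPM. The other HSCR proximal libraries were at 11.2 to 12.5 (muscle) and 8.18 to 8.55 (fibroblasts). The WT proximal libraries were at 10.7 to 12.4 and 7.70 to 7.97. The 15 neuron markers differed by -2.22, with summed levels of 97.9 to 2937 CPM in HSCR and 642 to 3936 CPM in WT. The 8 markers of enteric glia, the support cells of the ganglia, differed by -1.61, with summed levels of 78.0 to 369 CPM in HSCR and 351 to 802 CPM in WT. The 8 epithelial markers differed by 4.40, with means of 3.60 to 9.89 in the HSCR libraries (highest in HSCR proximal 2) and -0.0953 to 7.01 in the WT libraries. The part of these cell types in the Vcam1 difference, and in those of the other members, was not tested.

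L1cam, the founder of its family, was at 63.6, 104, 275 and 160 CPM in WT proximal and at 13.4, 35.7, 102 and 68.7 CPM in HSCR proximal colon. The 2 lowest libraries were both HSCR and the 2 highest both WT, with overlap between. Its fitted log2 fold change was -1.47 ± 0.63 (SE), with an unadjusted p of 0.0454 and an adjusted p of 0.747 in edgeR. Without HSCR proximal 1 it was -1.12.

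Ncam1, the main carrier of polysialic acid in the nervous system, was at 49.8, 158, 157 and 142 CPM in WT and at 52.9, 18.2, 96.7 and 48.4 CPM in HSCR proximal colon. WT proximal 1 lay among the HSCR libraries, and the other 3 WT libraries lay above all of them. The log2 fold change was -1.25 ± 0.51 (SE), with an unadjusted p of 0.0375 and an adjusted p of 0.747 in edgeR, and -1.23 without HSCR proximal 1.

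Chl1, the close homolog of L1, was at 36.2, 35.6, 136 and 71.4 CPM in WT and at 4.42, 3.01, 50.7 and 40.6 CPM in HSCR proximal colon. Within each series of libraries HSCR was below WT, but replicates 3 and 4 of HSCR were above replicates 1 and 2 of WT. The log2 fold change was -1.51 ± 0.89 (SE; adjusted p = 0.765 in edgeR). The same layering by replicate number was seen for Nfasc, an organizer of the axon initial segment and the nodes of Ranvier, at 3.08, 6.86, 48.1 and 29.0 CPM in WT and 1.30, 1.21, 11.6 and 8.54 CPM in HSCR. Its log2 fold change was -1.95 ± 1.00 (SE; adjusted p = 0.753 in edgeR).

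Ncam2, a relative of Ncam1 best known from olfactory axons, was at 6.96, 2.05, 86.6 and 52.0 CPM in WT and at 2.12, 0.484, 18.1 and 16.6 CPM in HSCR proximal colon. Cntn1, an adhesion molecule anchored in the membrane by a lipid, was at 25.0, 34.6, 180 and 124 CPM in WT and at 57.2, 5.88, 28.8 and 60.2 CPM in HSCR. Alcam, which binds itself and the T cell receptor CD6, was at 38.8, 30.3, 191 and 116 CPM in WT and at 23.8, 19.7, 121 and 69.9 CPM in HSCR. For each of these 3 genes the genotypes overlapped. Their log2 fold changes were -1.99 ± 1.28, -1.26 ± 0.79 and -0.70 ± 0.73 (SE), with adjusted p from 0.779 to 0.857 in edgeR. Nrcam, another partner of ankyrin, was scarce, at 7.17, 0, 19.4 and 11.3 CPM in WT and 3.27, 0, 5.96 and 6.25 CPM in HSCR (log2 fold change -1.31 ± 1.58, SE). Leaving out WT proximal 3, which was the highest library for each of these 4 genes, left log2 fold changes of -1.17 for Ncam2, -0.71 for Cntn1, -0.12 for Alcam and -0.72 for Nrcam, and of -0.99 for Chl1 and -1.24 for Nfasc.

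Icam1 was the only member with a higher fitted level in HSCR proximal colon. It was at 3.87, 0, 5.11 and 2.29 CPM in WT and at 13.8, 4.18, 8.27 and 10.5 CPM in HSCR, so that 3 of 4 HSCR libraries lay above all WT libraries. The log2 fold change was 1.69 ± 1.11 (SE), with an adjusted p of 0.790 in edgeR, 0.617 in DESeq2 and 5.59e-06 with RUVr, and 1.45 without HSCR proximal 1. Over the alternatives the adjusted p lay between 5.59e-06 and 0.884. The count of 0 in WT proximal 2, which allows up to 3 counts or 0.110 CPM, came from the library with the fewest genes counted (15741), where 3.34% of 13145 genes with a median of at least 2 CPM elsewhere had no count. In the other libraries that share was 0.0228% to 1.21%. Without this library the log2 fold change was 1.27. The macrophage list (8 genes) differed by 0.05 in mean log2 CPM between the genotypes, the lymphocyte list (8 genes) by 0.26 from levels near 0, and the epithelial list by 4.40, and their part in the Icam1 difference was not tested.

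**Figure D2:**
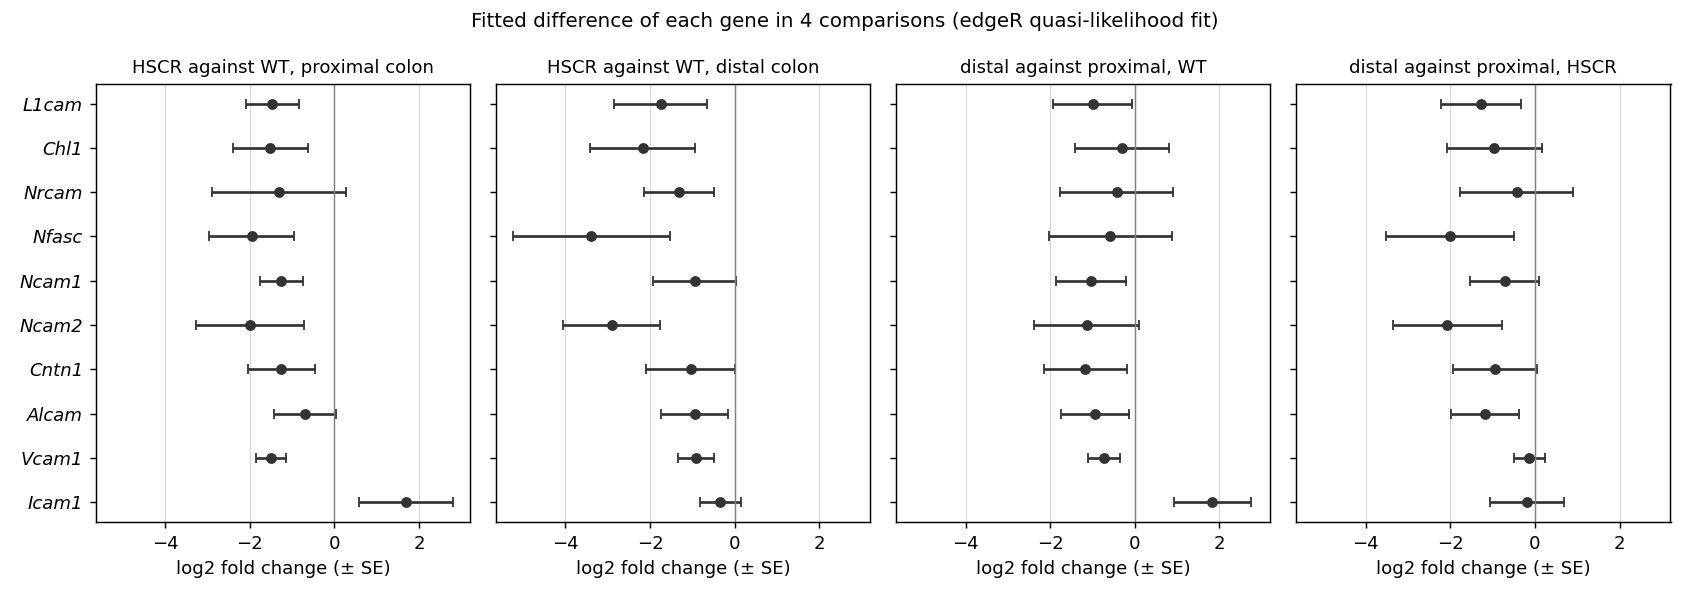
Fitted log2 fold change of each of the 10 genes, with its standard error (SE), in 4 comparisons of 4 against 4 libraries; points to the left of 0 are lower in HSCR (first 2 panels) or in the distal colon (last 2 panels). Of the 10 genes, 9, 10, 9 and 10 lie left of 0 in the panels from left to right, and Icam1 lies right of 0 in the panels for HSCR against WT in the proximal colon and for WT segments (1.69 and 1.84).

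In the distal colon, the segment called aganglionic in HSCR, all 10 members had a lower fitted level in HSCR (46.1% of all genes), with a median log2 fold change of -1.18 against 0.04 over all genes. None passed the adjusted test (0 of 10; 0% of all genes), 1 was lower at an unadjusted p under 0.05 (Ncam2; 1.76% of genes lower), and 6 had a log2 fold change below -1 (7.7% of genes). Groups overlapped for all 10, where 1.83% of genes had groups that did not overlap. DESeq2 and the likelihood ratio test called 0 members (0.129% and 0.041% of all genes), and RUVr called 4 (9.05%). The neuron list differed by -2.49 in mean log2 CPM and the glia list by -1.46, with summed glia levels of 46.1 to 280 CPM in HSCR and 141 to 541 CPM in WT, and their part in the members' differences was not tested.

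HSCR distal 1 stood apart for most neural members. L1cam was at 5.67, 16.5, 154 and 137 CPM in WT distal and at 56.3, 5.47, 23.0 and 5.78 CPM in HSCR distal colon. WT distal 1 and 2 were thus as low as the HSCR libraries, and HSCR distal 1 was above both. The log2 fold change was -1.75 ± 1.10 (SE), -2.82 without HSCR distal 1 and -1.16 without WT distal 3. Chl1 had the same layout, at 2.74, 16.8, 102 and 114 CPM in WT and 39.4, 2.95, 2.46 and 4.66 CPM in HSCR. Its log2 fold change was -2.18 ± 1.24 (SE) with all libraries, -4.11 without HSCR distal 1 and -1.68 without WT distal 4.

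Ncam2 was at 0.580, 8.31, 23.2 and 36.4 CPM in WT and at 5.75, 1.02, 0.621 and 1.30 CPM in HSCR distal colon. WT distal 1 was the lowest of these 8 libraries. The log2 fold change was -2.91 ± 1.14 (SE), with an unadjusted p of 0.0317 and an adjusted p of 1.000 in edgeR, and it was -4.09 without HSCR distal 1 (adjusted p = 0.813) and -2.28 without WT distal 4. Nfasc was at 0, 1.04, 26.7 and 32.7 CPM in WT and at 3.66, 0, 0.762 and 1.10 CPM in HSCR. Its fitted log2 fold change was -3.39 ± 1.85 (SE), -4.59 without HSCR distal 1 and -2.73 without WT distal 4. Its counts of 0 allow up to 3 counts, or 0.0966 CPM in WT distal 1 and 0.109 CPM in HSCR distal 2.

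Ncam1 was at 8.31, 15.3, 123 and 109 CPM in WT and at 81.8, 9.34, 29.3 and 9.32 CPM in HSCR distal colon. Cntn1 was at 2.38, 10.2, 85.0 and 69.3 CPM in WT and at 51.6, 7.15, 7.48 and 11.9 CPM in HSCR. Alcam was at 6.63, 13.8, 93.3 and 88.0 CPM in WT and at 41.9, 10.9, 32.4 and 17.8 CPM in HSCR. In all 3 genes WT replicates 3 and 4 were the highest of the 8 libraries and HSCR distal 1 came next. Their log2 fold changes were -0.94, -1.04 and -0.95 with all libraries, -2.03, -2.23 and -1.33 without HSCR distal 1, and -0.38, -0.40 and -0.45 without WT distal 3, and no adjusted p was under 0.05. Nrcam was at 3.09, 2.47, 13.1 and 10.2 CPM in WT and at 4.83, 0.474, 1.52 and 4.48 CPM in HSCR (log2 fold change -1.32 ± 0.83, SE).

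The series of the distal libraries went apart. Within replicates 1 and 2, 3 of 10 members had a lower mean log2 CPM in HSCR, and the differences lay between -0.57 and 1.85. Within replicates 3 and 4, all 10 were lower in HSCR, by 0.24 to 4.79. In the proximal colon 9 of 10 were lower in HSCR within each series. The share of all genes within a series was not computed, so these counts have no background to be read against. With the 3 HSCR libraries of deviating Hoxd13 left out, 0 members were called in either segment. A fit of replicates 3 and 4 alone, chosen after seeing the data, called 2 members in the distal colon (0.798% of all genes), 5 between HSCR segments (2.62%) and 2 in the interaction (0.685%).

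Vcam1 and Icam1 varied less between distal libraries than the neural members did. Vcam1 was at 15.1, 8.95, 25.1 and 18.2 CPM in WT and at 11.3, 5.14, 7.31 and 11.6 CPM in HSCR distal colon. Its log2 fold change was -0.92 ± 0.42 (SE), with an unadjusted p of 0.0580 and an adjusted p of 1.000 in edgeR. WT distal 2 lay within the HSCR range and the other 3 WT libraries lay above it. Endothelial markers differed by 0.43 in mean log2 CPM, in the other direction. Their summed levels overlapped, at 93.6 to 443 CPM in HSCR and 95.3 to 260 CPM in WT distal colon. Smooth muscle markers differed by 0.13 and fibroblast markers by -0.03. The part of these lists in the distal Vcam1 difference was not tested. Icam1 was at 8.66, 5.75, 8.18 and 18.6 CPM in WT and at 7.29, 3.79, 8.70 and 12.5 CPM in HSCR, a log2 fold change of -0.34 ± 0.49 (SE).

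Between the segments of WT colon, 9 members had a lower fitted level in the distal libraries (49.3% of genes below 0) and Icam1 a higher one. None passed the adjusted test or an unadjusted p under 0.05 (0 of 10; 0% and 4.83% of all genes), and DESeq2 called 0 and RUVr 3 members (0.0967% and 7.04% of all genes). Icam1 had groups that did not overlap, as 4.02% of all genes had, with 0 to 5.11 CPM in WT proximal and 5.75 to 18.6 CPM in WT distal colon. Its log2 fold change was 1.84 ± 0.91 (SE), with an unadjusted p of 0.0607 and an adjusted p of 0.956 in edgeR, and without WT proximal 2 it was 1.42. The epithelial list was 1.93 higher in mean log2 CPM distally, with summed levels of 15.3 to 1506 CPM in WT proximal and 91.3 to 1805 CPM in WT distal colon, and its part in the Icam1 difference was not tested. The median over the members was -0.83 against 0.01 over all genes. The largest differences among the others were those of Cntn1 (-1.17 ± 0.99), Ncam2 (-1.14 ± 1.24) and Ncam1 (-1.04 ± 0.83). The mean log2 CPM of the neuron list differed by -1.38 and that of the glia list by -0.75 between WT distal and proximal colon.

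Between the segments of HSCR colon all 10 members had a lower fitted level in the distal libraries (52.2% of genes below 0), with a median of -0.95 against -0.03 over all genes. None passed the adjusted test or an unadjusted p under 0.05 (0% and 2.56% of all genes), no groups were apart (1.33% of genes), and DESeq2 and RUVr called 0 members (0% and 1.49% of all genes). The neuron list differed by -1.65 and the glia list by -0.60 in mean log2 CPM. Ncam2 had the largest fitted difference (-2.07 ± 1.28), followed by Nfasc (-2.01 ± 1.52) and L1cam (-1.27 ± 0.94), whereas Vcam1 differed by -0.13 ± 0.37. Without HSCR proximal 1 and distal 1 the difference was -3.58 for Ncam2, -3.53 for Nfasc and -2.65 for L1cam. Within replicates 1 and 2 the differences in mean log2 CPM lay between -0.50 (Icam1) and 1.50 (Chl1), and within replicates 3 and 4 between -3.65 and 0.16.

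Whether the genotype difference itself differed between segments was tested as an interaction over all 16 libraries. None of the 10 members passed the adjusted test or an unadjusted p under 0.05 (0% and 1.44% of 18619 genes), DESeq2 called 0 members (0.0322%), and RUVr called 1 (Icam1; 1.68% of genes). Icam1 had the largest fitted interaction, -2.03 ± 1.25 (SE), from differences of 1.69 (proximal) and -0.34 (distal), with an unadjusted p of 0.126. For Vcam1 it was 0.59 ± 0.53 (SE), with differences of -1.51 and -0.92. The 2 genotype comparisons share no library, and the segment comparisons share libraries with both.

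The neural members varied together across libraries. Pearson's r of log2 CPM over the 16 libraries lay between 0.445 and 0.942 in the 28 pairs among them, with a median of 0.856. The highest value was that of Nfasc with Alcam and the lowest that of Nrcam with Ncam1. Vcam1 had r of 0.529 to 0.681 with the 8 neural members and Icam1 r of -0.259 to 0.492, with a median of -0.04, and Vcam1 and Icam1 had r of -0.199 with each other. These values describe 16 libraries that share groups, depth and tissue makeup. Among the 7 members without a zero, the spread between the lowest and the highest library was widest for Ncam2 (179-fold) and narrowest for Vcam1 (7.15-fold).

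**Figure D3:**
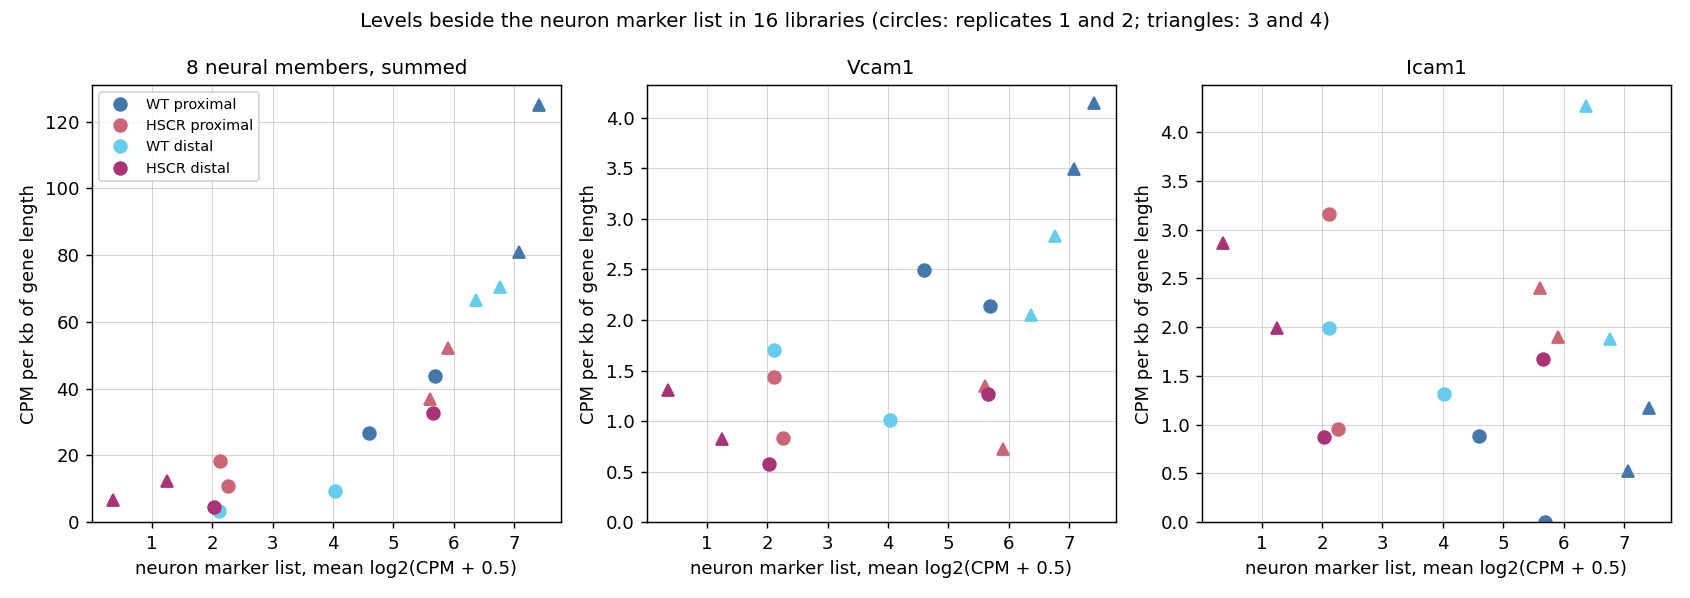
Summed level of the 8 neural members, Vcam1 and Icam1, in CPM per kb of gene length, against the mean log2 CPM of the 15 neuron markers, in 16 libraries (circles are replicates 1 and 2, triangles replicates 3 and 4). The summed neural level is highest (125 CPM per kb) in WT proximal 3, which has the highest neuron list (7.42), and HSCR distal 1 (32.8 CPM per kb, list 5.65) lies away from the other 3 HSCR distal libraries.

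Other genes with a like pattern were sought for each member among 15381 protein-coding genes, by Pearson's r over the 16 libraries. L1cam was most like Rtn1 (r = 0.973), Resp18 and Fstl5. Chl1 was most like Pirt (0.982), Hap1 and Map2, and Nfasc most like Gria2 (0.978), Ache and Omg. Ncam1 was most like Plxnb1 (0.963), Tram1l1 and Tyro3, and Ncam2 most like Syt16 (0.971), Paqr9 and Dpysl5. Cntn1 was most like Reep5 (0.955), Slitrk1 and Nap1l3, Alcam most like Chrnb2 (0.968), Grin1 and its fellow member Nfasc, and Nrcam most like Klhl34 (0.949), Cers1 and Layn. Vcam1 was most like Kcnc4 (0.905), Parvb and Hsph1, and Icam1 most like Fig4 (0.928), Ints14 and Cul1. No gene was among the 3 most alike of more than 1 member.

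The known partners and relatives of the members were listed in 6 groups with 68 genes, of which 67 were in the table. In the proximal colon 59 were tested and 0 passed the adjusted test. At an unadjusted p under 0.05, 6 were lower and 0 higher (4.13% of genes lower, 2.48% higher). A log2 fold change below 0 was fitted for 39 (46.8% of all genes). The median was -0.23. The NCAM polysialylation and signaling group had 7 of 9 genes below 0 (median -0.95). Gap43, a growth cone protein, was at 35.4 CPM in HSCR and 119 CPM in WT, and Fyn, a kinase downstream of NCAM, at 29.9 and 57.0 CPM. Both had groups that did not overlap, and both were picked after their values were seen. Of the 59 partners tested, 5 had such groups downward, 3 of them in this NCAM group, where 2.83% of all genes had. The 5 genes of the IgLON family, lipid-anchored relatives on neurons, had a median of -0.85, and Lsamp had the smallest p of all partners, at 5.72 ± 4.06 CPM in HSCR and 30.7 ± 17.0 CPM in WT (log2 fold change -2.43 ± 0.62, adjusted p = 0.649 in edgeR). Cntn2, a contactin of axons, was at 0.436 ± 0.230 and 5.22 ± 4.51 CPM (-3.57 ± 0.93, adjusted p = 0.649). Of the receptors and relatives of Vcam1, Icam1 and Alcam, among them the integrin chains, 11 of 15 were tested, 7 were above 0 and the median was 0.08. The smallest p among partners with a higher level were those of the cell junction gene Nectin2 (0.75 ± 0.39) and the growth factor receptor Fgfr2 (0.69 ± 0.40).

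In the distal colon 60 partners were tested, 0 passed the adjusted test and 5 were lower and 0 higher at an unadjusted p under 0.05 (1.76% of genes lower, 0.879% higher). The contactin group held 3 of the 5. Cntnap2, a partner of contactins that clusters potassium channels, was at 0.624 ± 0.301 CPM in HSCR and 11.1 ± 11.6 CPM in WT (-4.10 ± 1.06, adjusted p = 1.000 in edgeR). Its groups did not overlap, as for 2 of the 60 partners in all and for 1.83% of all genes. Cntn4 had 4, 0, 2 and 0 counts in the HSCR libraries and 24, 40, 25 and 49 in the WT libraries, too few in HSCR for a fold. The partners with the smallest p upward were Nectin2 (0.68 ± 0.57) and the polysialyltransferase St8sia2 (1.05 ± 0.93).

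Between segments, 63 partners were tested. In WT, 0 passed either threshold (0% and 4.83% of all genes) and 46 were below 0 (49.3% of all genes). Thy1, a neuronal surface protein, was at 55.5 ± 18.7 CPM in the distal and 118 ± 50.9 CPM in the proximal colon. Its groups did not overlap, and it was the only such partner (1 of 63), where 4.02% of all genes had such groups. The other named partners in WT were Cntn6 (1.61 ± 1.18), Fgfr2 (0.82 ± 0.64) and Madcam1 (-2.35 ± 1.28). Cntn6 had 4, 26, 44 and 6 counts in WT proximal and Madcam1 6, 0, 15 and 6 in WT distal colon, so both rest on few reads. In HSCR, 1 of 63 partners was past an unadjusted p of 0.05 (Cntn4, lower), where 2.56% of all genes were. Cntnap2 (-1.96 ± 1.10) had the next smallest p downward, and Opcml (1.08 ± 0.79) and Ank1 (0.52 ± 0.55) the smallest p upward. In the interaction 0 of 63 passed either threshold (0% and 1.44% of all genes). The named genes were Opcml (1.61 ± 1.11), Ptprz1 (1.26 ± 1.02), Tnr (-4.18 ± 2.68) and Cntn4. Tnr had 49, 0, 4 and 8 counts in the HSCR distal libraries, so its fitted value rests on few reads there.

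The genes of the members lie on 8 chromosomes of mm39, with Ncam1 and Icam1 both on chromosome 9 and Ncam2 and Alcam both on chromosome 16. Vcam1 spans chr3:115903598-115923337 and L1cam chrX:72897384-72939711, both on the minus strand, and Icam1 chr9:20927281-20940113 on the plus strand. Genes that overlap a member had at most 1.75% of its counts (Gm49555 within Ncam2), and 1.60% for Arhgap4 beside L1cam, and without a stated strand setting their reads cannot be told apart.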

How the data were processed

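RNA of 16 libraries from the LMMP was measured by poly(A)-selected RNA-seq. The authors aligned reads with HISAT2 2.2.1 to mm39, and featureCounts 2.0.6 assigned them to genes, and the deposited counts are whole numbers without normalization. The strand setting of the counting is not given in the sources used here, and the library protocol names both stranded and unstranded kits. Also deposited, and not used, were FPKM and the results of the authors' comparisons (fold changes with p and adjusted p).

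Libraries were grouped by their titles. The quasi-likelihood test of edgeR (edgeR 4.0.16, R 4.3.3) was run after filterByExpr and TMM scaling, in each segment over 8 libraries for the genotype and over 16 libraries in 4 groups for the segment contrasts and the interaction. Benjamini-Hochberg adjustment ran over all genes tested, with a threshold of 0.05. All 10 members passed the filter in each comparison. Cell type lists are means of log2(CPM + 0.5). The labels do not say whether libraries of a group came from separate mice, so the p-values measure the spread between libraries, with edgeR's biological coefficient of variation at 0.715 (proximal) and 0.737 (distal). Limits for a count of 0 cover counting error only.

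The members, the lists of partners and cell types and the alternatives were chosen with earlier results of these data known. Named partners were those called or, where fewer than 2 were called in a direction, the 2 with the smallest p in it, and Gap43 and Fyn were added after their values were seen. Promoters came from RefSeq. The alternatives were DESeq2 1.42.0, edgeR's likelihood ratio test, RUVr, upper quartile scaling, no mitochondrial genes, no filter, replicate number or library series as a term, another set of libraries in the fit, and leaving out libraries. Leaving out the 3 HSCR libraries that went against their label by Hoxd13, and using only replicates 1 and 2 or 3 and 4, were chosen after seeing the data.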

Additional observations from a re-analysis of the deposited data

Results flagged for a closer look

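In 40 sets of a member and a group of 4 libraries, a library lay far from the other 3 in 4 sets, by Dixon's ratio of the gap to the range. Chance flags about 1 in 20 such sets of normally distributed values, a rate that does not carry over to CPM in sets that share libraries. On the log2 scale 1 set remained, that of Ncam1. HSCR distal 1 was the highest library in 3 of them. It held 39.4 CPM of Chl1 where the other HSCR distal libraries held 2.46 to 4.66 CPM. It held 51.6 CPM of Cntn1 against 7.15 to 11.9 CPM. It also held 5.75 CPM of Ncam2 against 0.621 to 1.30 CPM. In the same library the neuron list stood at 5.65 (others 0.36 to 2.03) and Hoxd13 at 0.615 CPM, and their part in these levels was not tested. WT proximal 1 held 49.8 CPM of Ncam1 against 142 to 158 CPM in the other WT proximal libraries, and mitochondrial genes took 49.8% of its counts.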

How the results depend on the processing

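Of the counts of members called, 109 stayed at the main value and 8 moved. DESeq2 called 1 member in the proximal colon (Vcam1). RUVr with 4 factors called 8 members in the proximal genotype comparison, 4 in the distal one, 3 between WT segments and 1 in the interaction, and it also called 1871 genes higher and 1591 lower in the proximal colon, where DESeq2 called 34 and 156 and the likelihood ratio test 4 and 65, against 0 in the main analysis. Only replicates 3 and 4 gave 2 members in the distal genotype comparison (Chl1 and Nfasc), 5 between HSCR segments and 2 in the interaction, where 144, 505 and 132 genes of the whole table were called, and only replicates 1 and 2 gave 0.

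The fold changes of single members were tallied over the genotype and segment comparisons only, without the alternatives chosen after seeing the data. In this tally 728 kept their direction and side of the threshold, 16 passed the threshold and 16 changed sign. All of the latter were in the distal or segment comparisons and from values that did not pass the test. Outside the tally, within replicates 1 and 2, only 3 of 10 members had a lower mean log2 CPM in HSCR distal colon. All 10 were lower there in the main fit. Leaving out 1 library at a time gave ranges of -0.65 to 0.0677 for Icam1 in the distal genotype comparison. Between WT segments they were -0.78 to 0.22 for Chl1, -0.88 to 0.15 for Nrcam and -1.23 to 0.14 for Nfasc. Between HSCR segments they were -0.31 to 0.0544 for Vcam1 and -0.49 to 0.0669 for Icam1, and 0.0837 for Icam1 without both HSCR replicate 1 libraries. Nrcam between segments was 2.49 (WT) and 0.81 (HSCR) with RUVr, and Chl1 between HSCR segments was 0.42 with the library series as a term. The cause was not tested.

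With the replicate number as a block, 0 members were called in each comparison, and Nrcam between segments was 0.63 in WT and 0.22 in HSCR. The deviations of libraries with the same number correlated at -0.215 to 0.425. Between segments of a genotype the values were 0.0956 to 0.419 in WT and -0.00011 to 0.358 in HSCR. Libraries of different number were not compared, so this cannot decide whether the numbers mark pairs. The library names of replicates 1 and 2 do share a number across groups. The main fits did not use pairs.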
